A study of Danio rerio with 4 samples.

Results

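The caveolin and cavin genes described here were every gene carrying the symbol CAV1, cav3, CAVIN1 or cavin4a. These 4 symbols gave 5 genes of the 31953 counted, because 2 gene IDs, ENSDARG00000059362 and ENSDARG00000076411, share the symbol CAVIN1. The gene table does not say which of them is cavin1a and which is cavin1b, so they are named by ID. The genes were selected on their ratio of mutant to wild-type RNA-seq counts, which was already known, so those ratios are given as a description.

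Whole zebrafish embryos were collected 24 h after fertilisation, and each of 4 groups gave 1 library. RNA-seq was done on wild-type embryos and on ddx39a mutant embryos, and the labels give no allele. RNA immunoprecipitation followed by sequencing (RIP-seq), which recovers RNA together with a tagged protein, gave 1 library labelled wild type and 1 labelled ddx39a mutant. The protocol text for both RIP-seq libraries describes mutant embryos that received ddx39a-Flag mRNA at the 1-cell stage and anti-Flag beads, so they are told apart only by their genotype label and no library is treated as a mock. The DEAD-box helicase DDX39A is known to act in mRNA processing and export, and the study asked which transcripts differ in the mutants and which are bound by it. With 1 library per group no replicate spread could be measured. Every comparison is therefore between libraries, and every interval is a 95% interval of counting error only.

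Caveolae are small flask-shaped pits of the plasma membrane. Caveolin proteins insert into the inner face of the membrane, and cavin proteins assemble on them from the cytoplasm as a coat. CAV1 is the broadly expressed caveolin, abundant in mammals in endothelium, and CAV3 is the caveolin of muscle. CAVIN1 is needed for caveolae to form, and CAVIN4 is the muscle cavin, which in zebrafish also takes part in the development of the transverse tubules, the inward folds of the muscle membrane. The vacuolated cells of the zebrafish notochord, the embryonic axial rod, are rich in caveolae. Whole-embryo libraries do not show in which tissue a transcript was counted. Fewer cells of a type and less RNA per cell cannot be told apart in them.

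Counts in genes totalled 9922182 for wild-type and 9533101 for mutant RNA-seq, and 1966053 and 2246938 for RIP-seq under the wild-type and the mutant label. Of the 2 genes with the symbol DDX39A, ENSDARG00000015111 went from 3742 counts in wild-type RNA-seq to 706 in the mutant, and ENSDARG00000006225 from 2242 to 2382. The table does not say which of them carries the mutation. The 5 leading features held 75.5% and 69.5% of the RIP-seq counts (wild-type and mutant label), against 4.15% and 4.08% of the RNA-seq counts. The members summed to 3973 and 2774 counts in wild-type and mutant RNA-seq but to 113 and 86 in RIP-seq, so their RIP-seq values carry wide counting error.

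In RNA-seq the muscle members were lower in the mutant library and CAV1 was not. The muscle cavin gene cavin4a was 3.82-fold lower and the muscle caveolin gene cav3 2.27-fold lower. One CAVIN1 gene was 2.74-fold lower and the other 1.45-fold lower. CAV1 stood at a ratio of 1.02. A difference was called when the scaled counts were at least 2-fold apart with an interval that excluded equality. It was tested for genes that reached 1 CPM (counts per 1000000 gene counts) in either library. By this rule 3 of the 5 genes were called lower and 0 higher. Over all 18800 genes tested, 2.6% were called lower and 2.16% higher. The members' count comes from the contrast that chose them, so nothing is read from it.

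cavin4a (ENSDARG00000038658) had 542 counts in wild-type and 142 in mutant RNA-seq, or 54.6 and 14.9 CPM of all gene counts. The intervals of these levels, 50.1 to 59.4 and 12.5 to 17.6 CPM, did not overlap. The ratio of scaled counts was 0.262 (0.216 to 0.315), and 112 of the 18800 tested genes had a lower one. Its product joins the caveolar coat in muscle cells. In RIP-seq it had 11 counts under the wild-type label and 5 under the mutant one.

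cav3 (ENSDARG00000024141) had 990 counts in wild-type and 436 in mutant RNA-seq, or 99.8 and 45.7 CPM. Its ratio was 0.440 (0.392 to 0.493), and 440 tested genes stood lower. In people, mutations of CAV3 cause muscle disease. RIP-seq held 33 counts of cav3 under the wild-type label and 17 under the mutant one.

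The 2 CAVIN1 genes were both lower in the mutant library, by different amounts. ENSDARG00000059362 had 636 counts in wild type and 438 in the mutant, or 64.1 and 45.9 CPM, a ratio of 0.688 (0.607 to 0.778) that did not reach the 2-fold size. ENSDARG00000076411 was the member with the fewest counts, 134 and 49, or 13.5 and 5.14 CPM, with a ratio of 0.365 (0.258 to 0.510). Its interval of 1.96-fold to 3.88-fold lower reached just below the 2-fold size. In RIP-seq the first gene had 37 counts under the wild-type label and 28 under the mutant one, and the second had 1 and 0.

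CAV1 (ENSDARG00000103747) had the most counts of the 5 genes in RNA-seq, 1671 in wild type and 1709 in the mutant. These are 168 and 179 CPM, with a ratio of 1.02 (0.954 to 1.09). This interval reaches from just below to just above equality, and it leaves no room for a 2-fold difference by counting error. In RIP-seq CAV1 had 31 counts under the wild-type label and 36 under the mutant one.

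**Figure D1:**
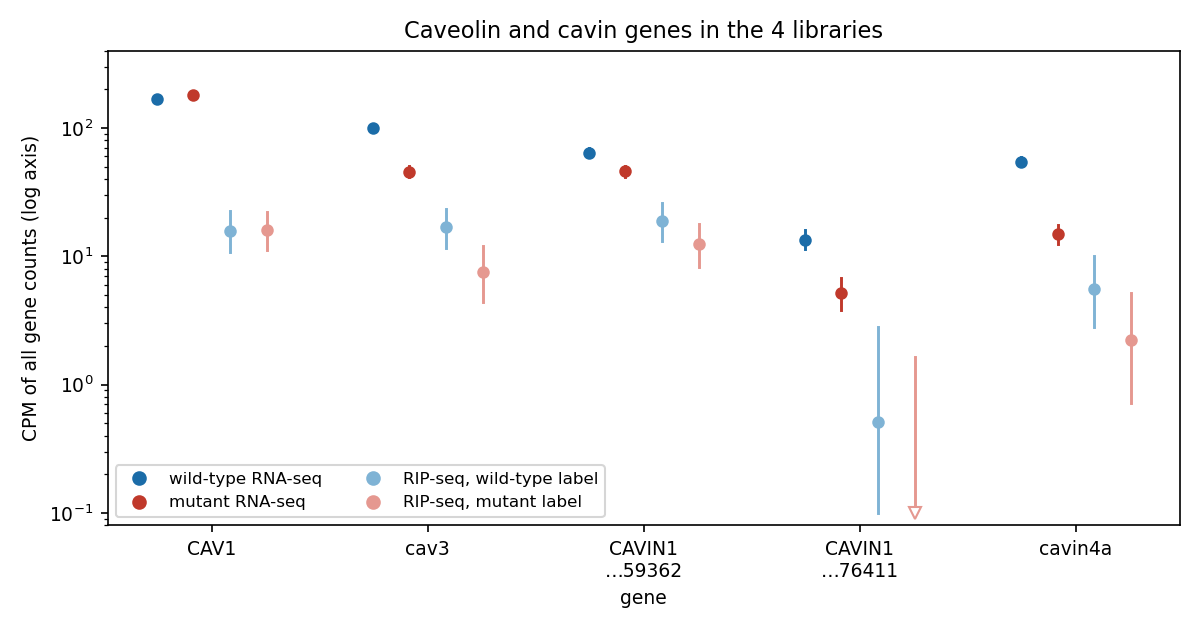
Level of each caveolin and cavin gene in each of the 4 libraries, in CPM of all gene counts on a log axis. Points are single libraries, lines are 95% exact Poisson intervals, and the open triangle marks 0 counts; the 2 CAVIN1 genes carry the last digits of their IDs. Levels of cav3 and cavin4a lie lower in the mutant than in the wild-type RNA-seq library (45.7 against 99.8 and 14.9 against 54.6), while those of CAV1 lie close together (168 and 179).

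The members were also set against each other within a library, since the change of such a count ratio from wild type to mutant needs no scaling and does not depend on transcript length. These ratios were added after the members' values had been seen, and in RNA-seq they describe the same contrast that chose the genes. Of 10 pairs, 8 changed beyond counting error. Since pairs share genes and no share over other gene pairs was computed, nothing is read from this count. Per cavin4a count there were 1.83 cav3 counts in wild type and 3.07 in the mutant, a 1.68-fold change (1.35 to 2.10), so cavin4a was reduced further than cav3. Per cav3 count there were 1.69 CAV1 counts in wild type and 3.92 in the mutant, a 2.32-fold change (2.03 to 2.65).

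In order of their mutant over wild-type ratio the genes ran from cavin4a through CAVIN1 ENSDARG00000076411, cav3 and CAVIN1 ENSDARG00000059362 to CAV1. The first 2 of this order were not separated beyond counting error, with a change of 1.4-fold between them (0.936 to 2.06). CAVIN1 ENSDARG00000076411 and cav3 were not separated either (1.2-fold, 0.844 to 1.74). The step from cav3 to CAVIN1 ENSDARG00000059362 was 1.56-fold (1.32 to 1.85) and the step from there to CAV1 1.48-fold (1.29 to 1.71). The 2 CAVIN1 genes differed in their change by 1.88-fold (1.32 to 2.73).

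None of the other tested genes from families of the caveola coat and neck reached the 2-fold size in RNA-seq. The list held 14 genes, of which 13 were tested in RNA-seq: CAV2, the CAVIN2 genes, cavin4b, and the EHD and PACSIN genes. The last are families in which some products bind and shape membrane at the caveola neck, and not every listed gene need act there. None was called, at the background of 2.6% lower and 2.16% higher given above. Their median log2 ratio was -0.13, against -0.00219 for all genes tested. The 5 members had a median of -1.18, but they were chosen on this same ratio, so the gap to them is a description. The interval lay below equality for 6 of the 13 and above it for 1, against 15.2% and 13.6% of all genes tested. Intervals narrow as counts rise, so such shares depend on depth, here and in the lists below, and all genes are no depth-matched background.

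cavin4b, the other zebrafish gene of the muscle cavin, had 1824 counts in wild type and 1364 in the mutant, a ratio of 0.747 (0.696 to 0.801). Per cavin4b count, cavin4a counts were 0.297 in wild type and 0.104 in the mutant, 2.85-fold fewer (2.34 to 3.50). Of this pair only cavin4a was chosen for its RNA-seq ratio, so the gap between them is a description. In the RefSeq gene order (assembly GRCz12tu) cavin4b overlaps another gene, agap3, and without a stated strand setting reads of the 2 cannot be told apart where they overlap. CAV2, which in mammals forms complexes with CAV1 and lies next to it in the same gene order, went from 225 to 240 counts, a ratio of 1.07 (0.884 to 1.28). The count of CAV1 per count of CAV2 was 7.43 in wild type and 7.12 in the mutant, a ratio of 0.959 (0.786 to 1.17).

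The CAVIN2 genes, whose products join the coat together with CAVIN1, were not alike. ENSDARG00000071196 went from 1504 to 1137 counts, a ratio of 0.755 (0.698 to 0.816), and ENSDARG00000027611 from 603 to 606, a ratio of 1.00 (0.895 to 1.13). PACSIN3, the PACSIN of muscle in mammals, stood at 1.04 (0.930 to 1.17) and PACSIN2 at 0.747 (0.650 to 0.858). Of the EHD genes, a family of ATPases in which some products hold caveolae at the surface, EHD2 ENSDARG00000040362 went from 347 to 285 counts. Its ratio was 0.820 (0.699 to 0.962). The lowest of the list was ehd4 with 81 and 53 counts and a ratio of 0.653 (0.453 to 0.935).

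The remaining tested genes of the list lay between 0.777 and 1.1. PACSIN1 ENSDARG00000042128 stood at 0.777 (0.665 to 0.908) and PACSIN1 ENSDARG00000032865 at 0.911 (0.613 to 1.35). EHD1 ENSDARG00000014793 stood at 0.933 (0.843 to 1.03), EHD3 at 0.920 (0.777 to 1.09) and EHD1 ENSDARG00000098853 at 1.1 (1.01 to 1.21). None of these ratios reached the 2-fold size. EHD2 ENSDARG00000035137 had 0 counts in either RNA-seq library and was not tested.

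**Figure D2:**
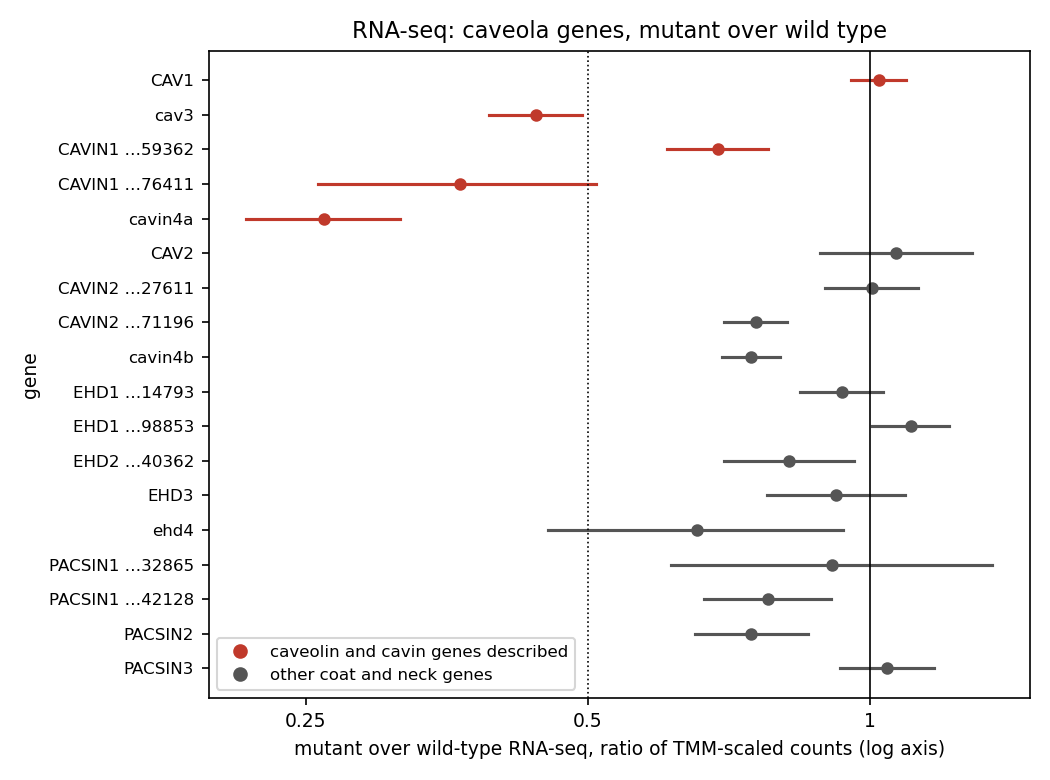
Ratio of scaled counts, mutant over wild-type RNA-seq, on a log axis, for the 5 caveolin and cavin genes (red) and the 13 other tested genes from coat and neck families (grey). Points are ratios, lines are 95% exact conditional binomial intervals, the solid line is equality and the dotted line a 2-fold lower value; genes that share a symbol carry the last digits of their IDs. cavin4a (0.262), CAVIN1 ENSDARG00000076411 (0.365) and cav3 (0.440) lie beyond the dotted line, and every grey point lies between it and 1.1.

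All 29 tested skeletal muscle markers had a ratio below 1 in RNA-seq. For 28 of them the interval lay below equality, against 15.2% of all genes tested. That share includes genes with few counts, whose intervals are wide. No notochord, endothelial or epidermal marker was called, though every tested notochord marker also had a ratio below 1. Of 29 tested skeletal muscle markers, 10 were called lower and 0 higher, against 2.6% and 2.16% of all genes tested. The most abundant, the actin gene actc1b, went from 43589 to 24683 counts, a ratio of 0.565 (0.557 to 0.574). The lowest were CASQ1 ENSDARG00000038716 (a calcium store protein, 0.263), pvalb1 (a parvalbumin, 0.336), TTN ENSDARG00000000563 (titin, 0.352) and TNNT3 ENSDARG00000068457 (a troponin, 0.414). Genes of the same symbols stood nearer to equality. CASQ1 ENSDARG00000018105 (0.628) and TTN ENSDARG00000028213 (0.543) were not called, and TNNT3 ENSDARG00000030270 (0.489) was called lower. The summed level of the 32 marker genes was 30419 CPM in wild type and 17863 CPM in the mutant. In wild type 1 of them had 0 counts and in the mutant 2 did, all of them TNNI2 gene copies.

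The members were also set against marker sums, here that of muscle, which describes the same RNA-seq contrast that chose them and gives no support of its own. cavin4a had 18.0 counts per 10000 muscle marker counts in wild type and 8.34 in the mutant, 2.15-fold fewer (1.79 to 2.61). cav3 had 32.8 and 25.6, 1.28-fold fewer (1.14 to 1.44), and CAVIN1 ENSDARG00000076411 4.44 and 2.88, 1.54-fold fewer (1.1 to 2.19). The values of these 3 genes per muscle marker count lay below wild type, with that of cavin4a the furthest below. CAVIN1 ENSDARG00000059362 had 21.1 and 25.7, 1.22-fold more (1.08 to 1.38), and CAV1 55.4 and 100, 1.81-fold more (1.69 to 1.94). The marker sum is weighted towards abundant genes such as actc1b (mutant over wild type 0.565), and single markers varied around it. CASQ1 ENSDARG00000038716 stood at 0.263, beside 0.262 for cavin4a, and pvalb1 at 0.336, below cav3 at 0.440, while smyhc1 stood at 0.953. How far the muscle difference bears on the members was not tested beyond the ratios given here.

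Of 25 tested notochord and notochord sheath markers none was called in either direction, and all 25 had a ratio below 1. The interval lay below equality for 16 of them, against 15.2% of all genes tested. The list median log2 ratio was -0.40, and the summed level of its 27 genes was 5262 CPM in wild type and 3964 CPM in the mutant, with none at 0 counts. Its most abundant gene, the collagen gene COL2A1 ENSDARG00000069093, which cartilage also uses, stood at 0.566 (0.549 to 0.584). CAVIN1 ENSDARG00000059362 had 122 counts per 10000 notochord marker counts in wild type and 116 in the mutant, a ratio of 0.952 (0.841 to 1.08). The other CAVIN1 gene, ENSDARG00000076411, had 25.7 and 13, a ratio of 0.505 (0.357 to 0.706). Against the same sum cavin4a stood at 0.362 (0.299 to 0.436) and cav3 at 0.608 (0.542 to 0.682). CAV1 had 320 and 452, a ratio of 1.41 (1.32 to 1.51).

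Endothelial markers had a median log2 ratio of -0.02 over 20 tested genes, with none called and summed levels of 483 and 493 CPM. Their interval lay below equality for 3 genes and above it for 2. The most abundant of them, the scavenger receptor gene stab2, stood at 0.889 (0.804 to 0.982), and plvapa had 1 count in wild type and 0 in the mutant. Against the endothelial sum CAV1 stood at 1.04 (0.975 to 1.12) and cav3 at 0.449 (0.401 to 0.504). There cavin4a stood at 0.267 (0.221 to 0.322), CAVIN1 ENSDARG00000059362 at 0.703 (0.621 to 0.795) and CAVIN1 ENSDARG00000076411 at 0.373 (0.263 to 0.521). Epidermal markers had a median of 0.03 over 17 genes, with none called and summed levels of 19639 and 20396 CPM. In this abundant list the interval lay below equality for 6 genes and above it for 8. Their most abundant gene, the keratin gene krt4, stood at 0.952 (0.944 to 0.959).

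Genes of neighbouring systems of the muscle membrane were set beside the members. The list medians lay nearer to equality than cavin4a, which was chosen on this same ratio, so the gap between them is a description. Of 15 tested genes that shape the transverse tubule and its junction, 2 were called lower and none higher, beside 2.6% and 2.16% of all genes tested. Their median log2 ratio was -0.35, and the interval lay below equality for 9 of the 15, against 15.2% of all genes. The called genes were the calcium channel subunit genes CACNA1S ENSDARG00000029457 (166 and 58 counts, 0.349, 0.254 to 0.473) and CACNG1 ENSDARG00000008772 (341 and 128 counts, 0.375, 0.303 to 0.461). Both intervals overlapped that of cavin4a (0.216 to 0.315). The more abundant CACNA1S gene, ENSDARG00000042552, had 731 and 480 counts and was not called (0.656, 0.583 to 0.737). The most abundant gene of this list, TMEM38A, which encodes a cation channel of the sarcoplasmic reticulum, stood at 0.60 (0.560 to 0.642). Of 18 genes of the dystrophin complex, which ties the muscle membrane to the cytoskeleton, none was called, and the median was -0.08. The interval lay below equality for 7 of them and above it for 2, against 15.2% and 13.6% of all genes tested. The most abundant gene of the complex, the dystroglycan gene DAG1, stood at 1.12 (1.06 to 1.18).

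**Figure D3:**
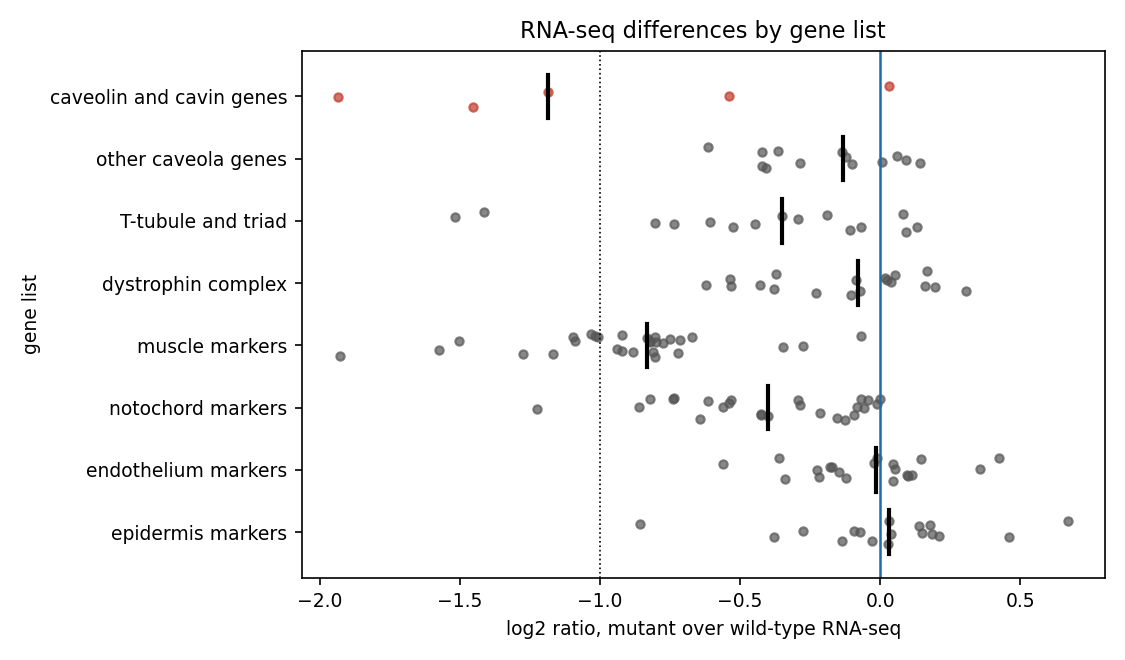
log2 ratio of scaled counts, mutant over wild-type RNA-seq, for the tested genes of each list, 1 point per gene with random vertical spread. Black bars are list medians, the blue line is the median of all 18800 genes tested and the dotted line a 2-fold lower value. The 5 caveolin and cavin genes, which were chosen on this ratio, have a median of -1.18. Muscle markers have one of -0.83, while endothelial (-0.02) and epidermal (0.03) markers lie around the median of all genes.

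The RIP-seq libraries were compared with each other to see whether the members differed there in the same way as in RNA-seq. cav3 was 2.38-fold lower with the mutant label (1.29 to 4.55) and was the only member called, of 4 tested. Over all 15762 genes tested, 5.3% were called lower and 8.11% higher. The intervals of the other tested members included equality. Their ratios were 0.371 for cavin4a (0.101 to 1.16), 0.617 for CAVIN1 ENSDARG00000059362 (0.364 to 1.04) and 0.948 for CAV1 (0.570 to 1.58). That of cavin4a rests on 11 and 5 counts. CAVIN1 ENSDARG00000076411, with 1 and 0 counts, was too low to test. When scaled by totals without the 5 leading RIP-seq features, cavin4a was called lower too, at 0.319 (0.0868 to 0.995). CAVIN1 ENSDARG00000059362 then stood at 0.531 (0.313 to 0.891), below equality but within the 2-fold size. Genes called lower in the whole table went from 835 to 1333, and the share of higher among all called genes moved from 60.5% to 41.4%.

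The RIP-seq difference of each member was divided by its RNA-seq difference. This double ratio was 0.928 for CAV1 (0.555 to 1.56), 0.956 for cav3 (0.494 to 1.79) and 0.898 for CAVIN1 ENSDARG00000059362 (0.521 to 1.53). For cavin4a it was 1.42 (0.380 to 4.51). All 4 intervals include equality, and their widths would hide a difference of 1.5-fold between the assays for each of them. CAV2 and cavin4b lay further apart between the assays. CAV2 fell with the mutant label in RIP-seq, from 20 to 8 counts, with a double ratio of 0.307 (0.115 to 0.746). cavin4b fell from 34 to 12 counts, with a double ratio of 0.386 (0.181 to 0.767). PACSIN3 went from 37 to 22 counts with a double ratio of 0.466 (0.258 to 0.821). These 3 genes were picked by their values. Of the 13 other coat and neck genes tested in RIP-seq, they were the 3 called lower, and 0 were called higher. Of all genes tested, 5.3% were called lower and 8.11% higher. Others of the list had double ratios above 1, such as EHD1 ENSDARG00000014793 at 1.28 (0.853 to 1.94).

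RIP-seq was also set against RNA-seq of the same label, which shows where each member's counts stood relative to other genes in the 2 assays. CAV1 was 3.0-fold lower in RIP-seq under the wild-type label (2.11 to 4.43) and 3.23-fold lower under the mutant one (2.32 to 4.62). cavin4a was 2.74-fold lower with the wild-type label (1.52 to 5.53), and its mutant-label ratio of 0.518 (0.166 to 1.24) was not called. cav3 stood at 0.599 (0.410 to 0.847) and 0.574 (0.331 to 0.929), below equality but within the 2-fold size. CAVIN1 ENSDARG00000059362 stood at 1.05 (0.729 to 1.46) and 0.941 (0.618 to 1.38). CAVIN1 ENSDARG00000076411 was called lower with the wild-type label from 1 RIP-seq count (0.134, 0.00337 to 0.760) and not with the mutant label, where it had 0.

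By the rule, 3 of 5 members were called lower under the wild-type label and 1 of 5 under the mutant one, and none was called higher. Of all genes tested, 12.8% were lower and 8.05% higher under the wild-type label, and 15.1% and 12.8% under the mutant one. These counts depend on the scaling, because a few features hold most RIP-seq counts. With total gene counts all 5 were called lower under both labels. So were 12872 genes of the whole table under the wild-type label and 12462 under the mutant one, so nothing is read from the 5. CAVIN1 ENSDARG00000059362 then stood at 0.294 and 0.271 instead of close to 1. The same scaling moved the share of higher among all called genes from 38.7% to 2.2% (wild-type label) and from 45.9% to 3.63% (mutant label). Upper-quartile factors and totals without the 5 leading features gave shares of 51.5% and 54.1% with the wild-type label. The labels' protocols give oligo(dT) enrichment. With no library treated as a mock, these ratios cannot tell recovery on the beads from a difference in RNA content between the assays.

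Ratios between members do not depend on that scaling. Per CAVIN1 ENSDARG00000059362 count CAV1 had 2.63 counts in RNA-seq of wild type and 0.838 in RIP-seq of the same label, a ratio of 0.319 (0.190 to 0.534). With the mutant label the values were 3.90 and 1.29, a ratio of 0.330 (0.193 to 0.568). CAV1 was thus lower relative to this CAVIN1 gene in RIP-seq than in RNA-seq under either label. Of the 6 pairs of members that could be compared, 4 changed beyond counting error under the wild-type label and 1 under the mutant one. The pairs share genes, and no share over other gene pairs was computed. Under the mutant label the members also had fewer RIP-seq counts (86 against 113), so nothing is read from these numbers of pairs. The cavin4a count per cavin4b count did not change detectably with the wild-type label (0.297 in RNA-seq and 0.324 in RIP-seq, ratio 1.09, 0.494 to 2.22). With the mutant label it was 0.104 and 0.417, a ratio of 4.0 (1.09 to 12.4), which rests on 5 and 12 RIP-seq counts.

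**Figure D4:**
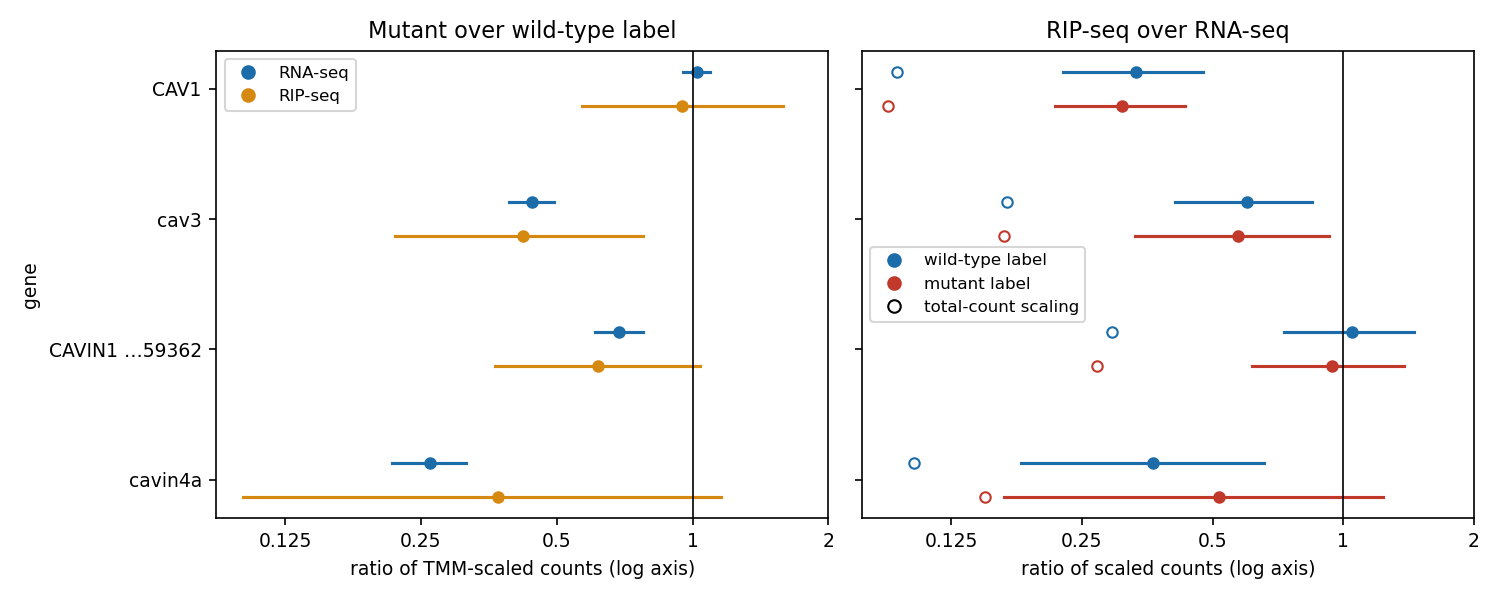
Ratios of scaled counts on log axes for the 4 caveolin and cavin genes with enough RIP-seq counts: mutant over wild-type label in RNA-seq and RIP-seq (left), and RIP-seq over RNA-seq for each label (right). Filled points are ratios with TMM scaling, lines their 95% exact conditional binomial intervals, and open points the ratios with total-count scaling. On the left the RNA-seq and RIP-seq intervals of each gene overlap; on the right CAVIN1 ENSDARG00000059362 lies close to 1 with TMM scaling (1.05 and 0.941) and at 0.294 and 0.271 with total counts.

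Genes with the most similar pattern were sought by the distance between log2 profiles over the 4 libraries, each centred on its own mean, among 9523 named genes. Such a distance over 4 libraries is a description, with counting error in every value. The profiles include the RNA-seq contrast that chose the members. Which members lie near each other, or share neighbours, therefore gives no support of its own. The 5 genes closest to cavin4a were GPI ENSDARG00000103826 (a glycolytic enzyme, distance 0.538), CACNG1 ENSDARG00000008772 (0.595), PURB ENSDARG00000103546 (a nucleic acid binding protein, 0.619), cav3 (0.648) and ACTA1 ENSDARG00000055618 (skeletal muscle actin, 0.762). The median distance over all these genes was 2.10. For cav3 the closest were PURB ENSDARG00000103546 (0.161) and ACTA1 ENSDARG00000055618 (0.227), then hist2h2l (0.285), mrpl36 (0.287) and FAM89A (0.315), with a median of 1.58. PURB ENSDARG00000103546 and ACTA1 ENSDARG00000055618 thus stood in the lists of both muscle members. Under the mutant label GPI ENSDARG00000103826 and CACNG1 ENSDARG00000008772 had 3 RIP-seq counts each, FAM89A 4 and mrpl36 6. The order of the distances that rest on such counts is not resolved.

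The closest genes of the other members with a profile were different ones. CAV1 was closest to SFRP5, which encodes a secreted regulator of Wnt signalling (0.00727), followed by ccdc187 (0.0563), RRM2 ENSDARG00000020711 (a subunit of ribonucleotide reductase, 0.0856), fxyd6l (0.0878) and NELFE (0.0959). Under the wild-type and mutant label SFRP5 had 6 and 7 RIP-seq counts, ccdc187 7 and 8, and NELFE 8 and 10. With so few counts the order of these distances is not resolved. CAVIN1 ENSDARG00000059362 was closest to gstr (0.124), NCKIPSD (0.168), SFT2D3 (0.171), SLC43A1 ENSDARG00000037748 (0.175) and ADPRS (0.178). Neither cav3 nor cavin4a was among the closest genes of CAV1 or of this CAVIN1 gene. CAVIN1 ENSDARG00000076411 had too few RIP-seq counts for a profile.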

How the data were processed

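The authors deposited 1 table of raw counts per library, by Ensembl gene. HTSeq 0.6.1p1, TopHat2 2.2.1, Bowtie2 2.2.3, FastQC 0.11.5, bcl2fastq and build GRCz10 are named in the submitters' processing notes. Strand setting and annotation release were not given in these sources, so antisense and overlapping genes cannot be told apart. The 5 HTSeq summary rows, 59.5% (wild type) and 58.5% (mutant) of RNA-seq records and 98.5% and 97.8% in RIP-seq, were left out. Records not uniquely aligned made up 11.2% and 8.42% in RNA-seq but 91.8% and 89.5% in RIP-seq. The assays thus differ in the records lost before counting, which limits ratios between them. Symbols came from a table matching 26121 of 31953 IDs. RefSeq coordinates were used only for gene order and overlap, and transcript lengths and sequences were not used here.

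Counts were scaled within each pair by TMM (edgeR 4.0.16, R 4.3.3; Python 3.11.15, scipy 1.17.1). Ratios carry 95% exact conditional binomial intervals, double ratios exact conditional odds-ratio intervals and levels exact Poisson intervals. The reads carry no molecular identifiers and so are no independent molecules, and these intervals cover counting error only, and no p-values were computed. Genes that reached 1 CPM in either library were tested; a count of 0 was set to a floor of 3 counts for the size rule, and genes with at most 3 counts in both libraries were never called. Medians and profiles used a prior count of 0.5.

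Members, lists and rules were chosen with earlier results of these data known. Named were the members, all genes of the caveola accessory list, the most abundant gene of each other list with up to 4 of its largest called changes, and the 5 closest profiles among genes with a symbol, 5 CPM or more in RNA-seq and 10 or more RIP-seq counts. List symbols not found were matched without the zebrafish paralog suffix. Alternatives were DESeq2 1.42.0 size factors, total counts with and without the 5 leading RIP-seq features, upper-quartile factors, other CPM minimums, a 1.5-fold size and exact symbols.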

Additional observations from a re-analysis of the deposited data

How the results depend on the processing

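In RNA-seq, 3 members called lower and 0 higher held under every alternative scaling, CPM filter and size run, and each member's ratio kept its direction and its side of the rule. The double ratios of the 4 members with enough RIP-seq counts included equality under every scaling. Counts over all genes moved: in RNA-seq to 114 higher and 194 lower with a CPM of at least 5 and to 826 and 1076 with a 1.5-fold size, from 406 and 488. Total-count scaling shifted RIP-seq over RNA-seq ratios by -1.83 (wild-type label) and -1.79 (mutant label) on the log2 scale. All genes called then numbered 289 higher and 12872 lower (wild-type label; 1402 and 2222 before) and 470 and 12462 (mutant label; 2267 and 2671 before), members called lower numbered 5 under each label, and the ratio of CAVIN1 ENSDARG00000059362 with the wild-type label turned from 1.05 to 0.294; this follows from the 5 features that hold most RIP-seq counts. Totals without these features gave 2 members and 1333 genes lower between the RIP-seq libraries (835 before), with a shift of -0.22. The 1.5-fold size gave 2122 genes higher in RIP-seq over RNA-seq with the wild-type label and 2 members lower with the mutant label, cav3 being added. With exact symbols the muscle list had 3 of 16 genes called lower in RNA-seq and the transverse tubule list 0 of 8, from fewer genes tested. The 5 genes closest to each member were the same 5 with total counts. No paired analysis was possible because each group had 1 library. Depth limits the members' RIP-seq values: the floor of 3 counts equals 1.53 and 1.34 CPM there, against 0.302 and 0.315 in RNA-seq.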

Other observations

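Some genes of the muscle membrane showed another pattern in RIP-seq than the caveolin and cavin genes. These genes were chosen after their values were seen. The dystrophin gene dmd went from 74 counts under the wild-type label to 320 under the mutant one, 3.53-fold higher (2.73 to 4.61), and its relative utrn from 83 to 622, 6.11-fold higher (4.86 to 7.78). DYSF, whose product dysferlin acts in membrane repair, went from 37 to 178 counts, 3.93-fold higher (2.74 to 5.76). In RNA-seq the same genes stood at 1.24 (1.12 to 1.37), 0.943 (0.858 to 1.04) and 0.785 (0.707 to 0.871). Of 18 tested genes of the dystrophin complex list, 5 were called higher and 1 lower with the mutant label, beside 8.11% and 5.3% of all genes tested. The lower one was sgcg (0.478, 0.247 to 0.900), and 7 of the 18 had a ratio below 1. Higher values were not particular to membrane genes. Of 27 tested skeletal muscle markers, 5 were called higher and 11 lower. The higher ones were the TTN genes (3.94 and 4.53), NEB (3.29) and the RYR1 genes (8.10 and 6.67). DYSF belongs to the transverse tubule list, in which it was the 1 gene of 15 called higher. In that list 1 gene was called lower, CACNG1 ENSDARG00000008772 with 11 and 3 counts (0.223, 0.0399 to 0.842), and 9 of the 15 had a ratio below 1.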
